A study of Arabidopsis thaliana with 8 samples.

Results

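The 7 genes described here, TOPII, BUBR1, ICU2, AUR1, AUR2, FBL17 and HTB2, serve DNA replication and cell division in Arabidopsis thaliana. They are 7 of 16546 genes that had at least 1 probe set naming them alone, and each had exactly 1 such probe set. They were taken by symbol with the difference between mutant and wild type already known. That difference is therefore given as a description without a test, and no p-value is attached to it.

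In a plant leaf, cells divide while the leaf is young and then stop dividing as they expand, although many go on to copy their DNA without dividing. DNA is copied by polymerases behind a helicase, the copies are packed into new histones, topoisomerases untangle the strands, and kinases of the spindle check and drive the separation of chromosomes. Transcripts of these steps are low in a fully grown leaf, because most of its cells have left the cycle.

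Leaf RNA of 2 genotypes in the col-0 background was hybridised, as biotin-labelled cRNA made from 200 ng of total RNA, to 8 one-colour Affymetrix arrays, 4 from control plants with the wild-type gene and 4 from fbn5-1 plants, which carry a T-DNA insertion. FBN5 encodes a plastid fibrillin. Plants of both genotypes were 3 weeks old, untreated, and raised at 25 °C in 16 h of light and 8 h of dark at 60% humidity, on 0.5x MS medium with 1% sucrose. The mutant is 1 insertion line, and the labels do not say whether replicates were separate plants or cultures, so a p-value here measures only how these arrays differ among themselves, which can be technical spread.

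Deposited values were read as log2, a base inferred from their range, and had array medians between 3.42 and 3.49. Wild type array 4 stood apart, with correlations of 0.953 to 0.964 to the other arrays, which correlated at 0.974 to 0.992 among themselves. FBN5 itself (AT5G09820) had a signal of 3.54, 3.35, 3.43 and 5.15 on wild type arrays 1 to 4 and of 4.71, 4.52, 4.76 and 4.58 on fbn5-1 arrays 1 to 4. The targeted gene was thus not lower in the arrays labelled fbn5-1 (difference 0.775, SE 0.36, limma adjusted p = 0.173; without wild type array 4, 1.2, adjusted p = 0.000534). The position of its probe set along the gene, before or past the T-DNA, is not given, and every direction below rests on the labels. Of leaf mesophyll markers, RCA and PRK (2 of 8 with a probe set of their own) had wild-type means of 11.0 and 8.06 and were not called. Their summed linear signal was 2240 to 2410 on wild type and 2140 to 2420 on fbn5-1 arrays.

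All 7 genes had higher signal on every fbn5-1 array than on any wild type array. The 7 differences lay between 0.66 and 1.71 on the log2 scale, which is 1.58-fold to 3.28-fold. Their median was 1.2, while the median over all 17147 tested probe sets was -0.015. Among all tested probe sets, 11.7% had the 4 fbn5-1 arrays above the 4 wild type arrays and 23.6% had labels that did not overlap in either direction. Nothing is read from the count of 7, because the genes were chosen on this contrast. In bulk leaf RNA, more cells of a dividing type and more RNA per cell cannot be told apart.

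Among the genes of DNA replication, TOPII (AT3G23890) encodes DNA topoisomerase II, which passes DNA strands through each other to untangle replicated chromosomes. Its log2 signal was 3.35, 3.29, 3.3 and 2.85 on wild type arrays 1 to 4 and 5.36, 4.63, 4.84 and 4.81 on fbn5-1 arrays 1 to 4. The labels were separated by 1.28 between the highest wild type and the lowest fbn5-1 value, the widest gap of the 7. Its difference was also the largest of the 7, at 1.71 (SE 0.18), from 3.2 ± 0.23 to 4.91 ± 0.31 (SD, n = 4).

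ICU2 (AT5G67100) encodes the catalytic subunit of DNA polymerase alpha, which starts new strands at the fork. Wild type arrays 1 to 4 gave 3.34, 3.35, 3.27 and 2.33, and fbn5-1 arrays 1 to 4 gave 4.82, 3.92, 4.36 and 4.32. Wild type array 4 was the low one, and without it the difference of 1.28 (SE 0.26) was 1.035 (SE 0.19).

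HTB2 (AT5G22880) encodes a histone H2B, made when new DNA is packed. Its values were 2.84, 2.36, 2.92 and 2.21 on the wild type arrays and 3.66, 3.24, 3.54 and 3.66 on the fbn5-1 arrays. The wild-type mean of 2.58 ± 0.35 (SD, n = 4) lay below 2.79, the mean signal that a probe set had to exceed over the 8 arrays to be tested, and HTB2 passed through the fbn5-1 arrays (3.53 ± 0.20). The other 6 members lay above 2.79 in both groups, so 7 of 7 passed. Histone H2B genes are near-identical copies of each other, and how far this probe set reads other copies was not tested.

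Of the spindle genes, BUBR1 (AT2G33560), a protein of the checkpoint that holds division until chromosomes are attached, had 3.01, 2.85, 3.05 and 2.71 on wild type arrays 1 to 4. On fbn5-1 arrays 1 to 4 it had 5.05, 3.84, 3.90 and 4.98. The mutant arrays split into a higher pair, 1 and 4, and a lower pair, 2 and 3. Its SD was 0.66 on fbn5-1 and 0.16 on wild type arrays, a ratio of 4.24 that was the largest of the 7, and its difference was 1.54 (SE 0.29).

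The Aurora kinases AUR1 (AT4G32830) and AUR2 (AT2G25880) act at the spindle and in the placing of the division plane. AUR2 had 3.27, 2.96, 3.17 and 2.91 on wild type arrays 1 to 4 and 4.84, 3.59, 4.23 and 4.46 on fbn5-1 arrays 1 to 4. AUR1 had 3.53, 3.92, 3.79 and 3.18 on the former and 4.84, 3.94, 4.77 and 4.76 on the latter. For AUR1 the labels all but met, with 0.02 between wild type array 2 and fbn5-1 array 2, while AUR2 had a gap of 0.32. The difference was 0.97 (SE 0.23) for AUR1 and 1.202 (SE 0.24) for AUR2. The pair are close homologues, and reading of one gene's RNA by the other's probe set was not tested.

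FBL17 (AT3G54650) encodes an F-box protein that marks inhibitors of cyclin-dependent kinases for destruction, and so lets cells enter DNA synthesis. It had 4.90, 5.13, 4.70 and 4.74 on wild type arrays 1 to 4 and 5.55, 5.40, 5.48 and 5.67 on fbn5-1 arrays 1 to 4. The difference was the smallest of the 7, at 0.66 (SE 0.12), and the arrays of each label lay close together (SD 0.195 and 0.11).

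**Figure D1:**
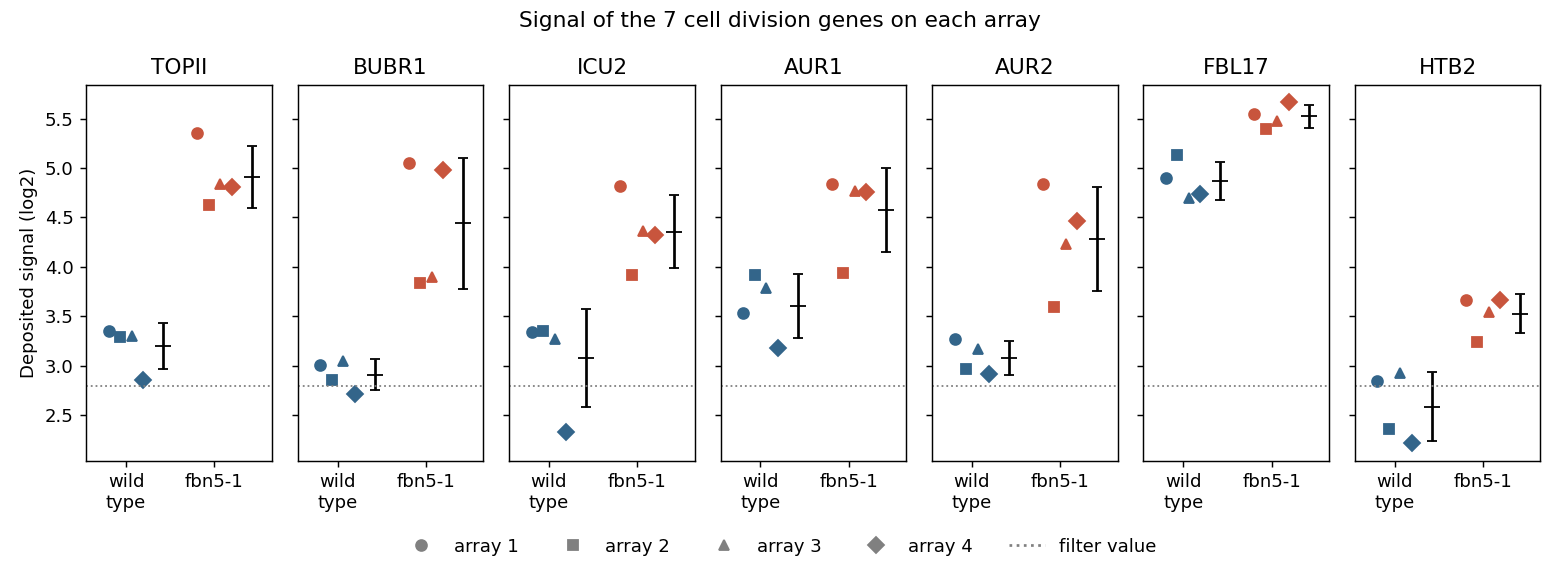
Deposited log2 signal of each gene on each array, wild type in blue and fbn5-1 in red, with a marker shape for each array number, the mean ± SD of each label in black and the filter value of 2.79 as a dotted line. The 4 fbn5-1 arrays lie above the 4 wild type arrays for all 7 genes, by as little as 0.02 for AUR1 and as much as 1.28 for TOPII.

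Ordered by their difference, the genes ran TOPII, BUBR1, ICU2, AUR2, AUR1, HTB2, FBL17. No neighbours in that order were clearly apart. The steps between neighbours were 0.03 to 0.285, and each was at most 1.23 times its own SE, taken from the gene-to-gene differences on the arrays. Leaving out any 1 array kept every difference positive. The lowest values reached were 1.562 for TOPII, 1.335 for BUBR1, 1.035 for ICU2, 1.016 for AUR2, 0.831 for AUR1, 0.818 for HTB2 and 0.602 for FBL17. The 1.016 of AUR2 arose without fbn5-1 array 1, while ICU2, AUR1 and HTB2 were lowest without wild type array 4.

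At these low signals the size of a log2 difference depends on the floor. In linear units TOPII had a mean of 9.26 ± 1.38 on wild type and 30.6 ± 7.17 on fbn5-1 arrays (SD, n = 4), HTB2 6.12 ± 1.46 and 11.6 ± 1.51, and FBL17 29.4 ± 4.11 and 46.2 ± 3.69. With 16 added to the linear signal before log2, a constant larger than the wild type signal of 6 of the 7 genes (all but FBL17), the differences were 0.87 for TOPII (SE 0.10), 0.71 for BUBR1 (SE 0.16), 0.57 for ICU2 (SE 0.11), 0.55 for AUR2 (SE 0.12), 0.51 for AUR1 (SE 0.12), 0.46 for FBL17 (SE 0.08) and 0.32 for HTB2 (SE 0.06). HTB2 kept 33.9% of its log2 difference, the smallest share of the 7, and FBL17 kept 69.3%, the largest.

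The order changed at its end only, where FBL17 and HTB2 exchanged places. Those 2 genes were not clearly apart on either scale, with a step of 1.23 times its SE as deposited and 1.45 times with 16 added. All 7 genes still had the fbn5-1 arrays above the wild type arrays, with a gap for AUR1 of 0.01. TOPII then had 4.71, 4.69, 4.69 and 4.54 on wild type arrays 1 to 4 against 5.83, 5.35, 5.48 and 5.46 on fbn5-1 arrays 1 to 4. The median of the 7 was 0.55, beside -0.009 over all tested probe sets on the same scale.

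**Figure D2:**
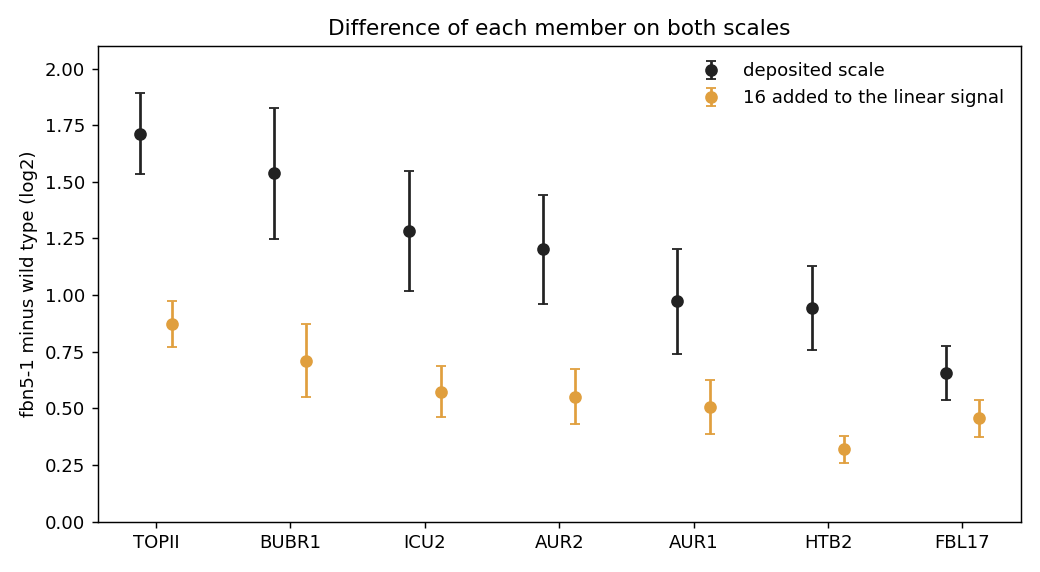
Difference of each gene, fbn5-1 minus wild type in log2 units, on the deposited scale (black) and with 16 added to the linear signal (orange), with bars for the SE of the limma fit. Every difference is positive on both scales, and the drop from black to orange is smallest for FBL17, from 0.66 to 0.46.

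The 7 genes also varied among arrays of one label, which is set out here as a description. Each value was set against its gene's mean over the 4 arrays of that label. On wild type array 4 all 7 genes lay below their label mean, by 0.34 on average, with deviations from -0.74 (ICU2) to -0.13 (FBL17). That array also lay farthest from its label mean over all tested probe sets, with a root mean square deviation of 0.472 beside 0.177 to 0.238 on the other arrays. On fbn5-1 array 2 all 7 lay below as well, from -0.69 (AUR2) to -0.12 (FBL17), with a mean deviation of -0.44. On fbn5-1 array 1 all 7 lay above, with a mean of 0.36 and a highest value of 0.61 (BUBR1). The other 5 arrays had mean deviations between -0.07 and 0.15, with genes on both sides.

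**Figure D3:**
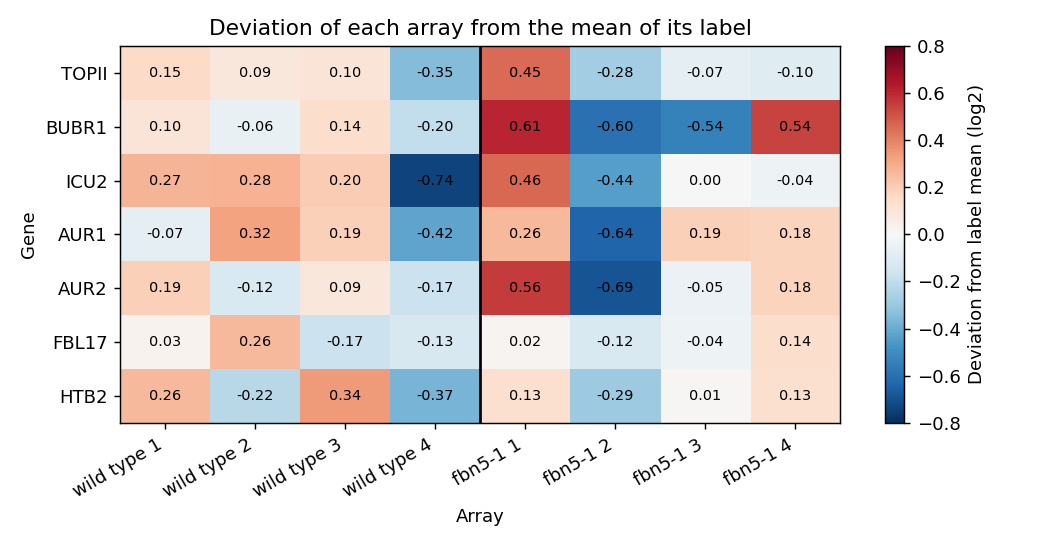
Deviation of each gene on each array from its mean over the 4 arrays of the same label, in log2 units, with red above and blue below. The columns of wild type array 4 and fbn5-1 array 2 are blue throughout and that of fbn5-1 array 1 is red throughout.

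Between pairs of members, Pearson correlations of these deviations over the 8 arrays ran from 0.00 to 0.94 with a median of 0.65 (median Spearman rho 0.57). Over all 147001231 pairs of tested probe sets the median was 0.03 and the upper quartile 0.38. These are descriptions, since the pairs share the same 8 arrays. TOPII and ICU2 were the closest pair (r = 0.94, rho = 0.93), followed by BUBR1 and AUR2 (r = 0.85, rho = 0.86). The pair AUR1 and AUR2 had 0.73 (rho = 0.40). FBL17 followed the others least, with r between 0.00 (HTB2) and 0.57 (AUR1).

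Much of the covariation went with the arrays that had the lowest mean deviations. Leaving out wild type array 4 and fbn5-1 array 2 was an alternative chosen after seeing the data. On these arrays the mean deviation of the 7 genes lay farthest from its median over arrays. The choice itself therefore favoured lower correlations among the 7, and no conclusion is drawn from the drop. The median over the 21 pairs was then 0.16 (range -0.76 to 0.99). Over all pairs of tested probe sets it was 0.01, with an upper quartile of 0.42. TOPII with ICU2 (0.99), TOPII with AUR2 (0.84) and BUBR1 with AUR2 (0.78) then had the highest values, while AUR1 with AUR2 was at -0.24. On the scale with 16 added, over 8 arrays, the median was 0.66.

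Likeness was measured as the Pearson correlation, over the 8 arrays, with the mean of the 7 genes after each was centred. The tested genes most like that mean were AT1G14270 (r = 0.988), HEME2 (0.984), TOP3A (0.983), AT4G25870 (0.983) and AT3G51140 (0.982). HEME2 encodes uroporphyrinogen decarboxylase of tetrapyrrole synthesis, and TOP3A a topoisomerase. Their differences between labels were 0.36, 0.60, 0.94, 0.50 and 0.40 on the log2 scale. Of all tested probe sets, 3.67% lay above 0.9 on this measure. Without wild type array 4 and fbn5-1 array 2 the 5 correlations were 0.978 to 0.989. These values include the difference between labels, and on deviations from label means over the same 6 arrays they were 0.455 for AT1G14270, 0.617 for TOP3A, 0.722 for AT4G25870, 0.764 for AT3G51140 and 0.983 for HEME2.

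On the deviations from label means alone, the 5 highest were AT3G61610 (r = 0.994), AT4G06598 (0.985), AT2G47320 (0.984), AT1G61500 (0.983) and PRP39-2 (0.982), and 1.95% of tested probe sets lay above 0.9. Of these, AT3G61610 differed between labels by 1.16, and the other 4 by -0.15 to 0.15. These differences are given without SE or call. Over all tested probe sets 16.8% were called in either direction, so nothing is read from 1 of the 5 differing between labels.

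For other genes of replication and division, 203 were listed by locus in 7 groups, of which 28 had a probe set of their own and 20 were tested. Of the 20, 8 rose in the arrays labelled fbn5-1, 1 fell and 11 were not called (limma, adjusted p under 0.05 over all tested probe sets). Over all tested probe sets 16.8% were called, 8.22% higher and 8.55% lower. The median difference was 0.35 on the deposited scale and 0.18 with 16 added, where 8 were again higher and 1 lower (16.7% called over all, 8.17% and 8.49%). Without wild type array 4, 8 were higher and 2 lower, with 22.5% called over all, 9.54% and 12.9%. The 8 called higher became 4 without wild type array 1. They became 5 without wild type array 2 or 3, or without fbn5-1 array 1, 3 or 4. Calls over all 17147 tested probe sets fell as well, from 2876 to 1842 without wild type array 1. In the runs with 5 they were 1736 to 2357. The lists were drawn up with earlier results of these data known, so the count is not independent evidence. Cyclins and cyclin-dependent kinases, 36 on the list, were matched to no probe set of their own and are not analysed here.

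In the replication groups, PRL, the MCM7 subunit of the helicase, had 3.80, 3.72, 3.47 and 2.91 on wild type arrays 1 to 4 and 5.44, 4.65, 4.68 and 4.79 on fbn5-1 arrays 1 to 4. It rose by 1.41 (SE 0.24, adjusted p = 0.00608), with no overlap of the labels, and wild type array 4 lowest as for TOPII and ICU2. PSF2, of the GINS complex that works with the helicase, rose by 0.39 (SE 0.09, adjusted p = 0.0228), and AT5G26680 of the fork list by 0.56 (SE 0.14, adjusted p = 0.0253). PSF2 kept its call only when wild type array 2, wild type array 4 or fbn5-1 array 4 was the one left out, and otherwise reached an adjusted p of up to 0.0646. AT5G26680 was no longer called when wild type array 3 or any fbn5-1 array was dropped (adjusted p of up to 0.0634). POLD3 and POLA3, subunits of DNA polymerases, had means over the 8 arrays under the filter value and were not tested. Their differences were 0.107 and 0.632. For POLA3 the wild-type mean was 2.2 and the fbn5-1 mean 2.84, the latter above 2.79. Its labels did not overlap, with a highest wild type value of 2.31 and a lowest fbn5-1 value of 2.34.

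Among spindle and chromosome genes, 3 of 8 tested rose and 0 fell, beside 8.22% and 8.55% of all tested probe sets. Of the 8, AT3G57060 and AT1G61000 had wild-type means of 2.77 and 2.76, under the filter value of 2.79. They passed through the fbn5-1 arrays (3.26 and 2.9), and neither was called. HTR12, the centromere-specific histone H3, had 2.81, 3.03, 3.23 and 2.67 on wild type arrays 1 to 4 against 4.25, 3.86, 4.11 and 4.26 on fbn5-1 arrays 1 to 4 and rose by 1.18 (SE 0.15, adjusted p = 0.00239). AUR3, the third Aurora kinase, had 3.03, 3.18, 3.35 and 3.2 against 4.53, 3.5, 4.19 and 4.03. Its lowest mutant value was on fbn5-1 array 2 and its highest on array 1, as for AUR2, and it rose by 0.87 (SE 0.20, adjusted p = 0.0202). WYR, an inner centromere protein that works with Aurora kinases, rose by 0.53 (SE 0.13, adjusted p = 0.0247). AUR3 lost its call when wild type array 1, wild type array 2 or fbn5-1 array 3 was left out (adjusted p of up to 0.0562). WYR lost it when any array but wild type arrays 3 and 4 and fbn5-1 array 3 was left out (up to 0.0651).

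BUB3.1, a partner of BUBR1 in the checkpoint, had 4.37, 4.37, 4.41 and 4.13 on wild type arrays 1 to 4 and 5.09, 3.93, 4.61 and 4.89 on fbn5-1 arrays 1 to 4, so the labels overlapped (difference 0.31, SE 0.23, adjusted p = 0.381). Its deviations correlated with the mean deviation of the 7 genes at 0.93. Without fbn5-1 array 2 it was called (adjusted p = 0.0461). BUB3.2, AT2G20635 and AT1G69400 had differences of 0.44, 0.07 and -0.02 and lay under the filter value.

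In the remaining groups, 1 of 2 tested cytokinesis genes and 1 of 5 tested histone and chromatin assembly genes rose, and 1 of 2 tested cell cycle regulators fell. With 8.22% of all tested probe sets called higher and 8.55% lower, nothing is read from single calls in groups of this size. KINESIN-12B, a motor of the division plane, rose by 0.78 (SE 0.19, adjusted p = 0.0262), and ASF1B, a histone chaperone, by 0.70 (SE 0.16, adjusted p = 0.0185). Leaving out wild type array 1, wild type array 2 or fbn5-1 array 4 ended the call of KINESIN-12B (adjusted p of up to 0.0695), and leaving out wild type array 3 that of ASF1B (0.0518). SKP2A, an F-box protein of cell cycle control like FBL17, fell, in the opposite direction to FBL17. It had 5.35, 5.31, 5.36 and 5.08 on wild type arrays 1 to 4 and 4.49, 4.09, 4.84 and 4.56 on fbn5-1 arrays 1 to 4 (difference -0.78, SE 0.16, adjusted p = 0.0123). The calls of PRL, HTR12 and SKP2A held without each single array.

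Other histone genes were measured beside HTB2. HTB1 and HTB4 had differences of 0.27 (SE 0.25, adjusted p = 0.507) and 0.39 (SE 0.16, adjusted p = 0.12), and HTB11 was under the filter value at -0.32. AT2G28720, also on the histone list, had 5.37, 5.03, 4.70 and 2.86 on wild type arrays 1 to 4 and 3.45, 3.53, 3.38 and 3.72 on fbn5-1 arrays 1 to 4. Only wild type array 4 was as low as the mutant arrays (difference -0.97, SE 0.47, adjusted p = 0.185), and without it AT2G28720 was called lower (-1.51, adjusted p = 0.000988). The gap between any of these and the difference of HTB2 was not tested.

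**Figure D4:**
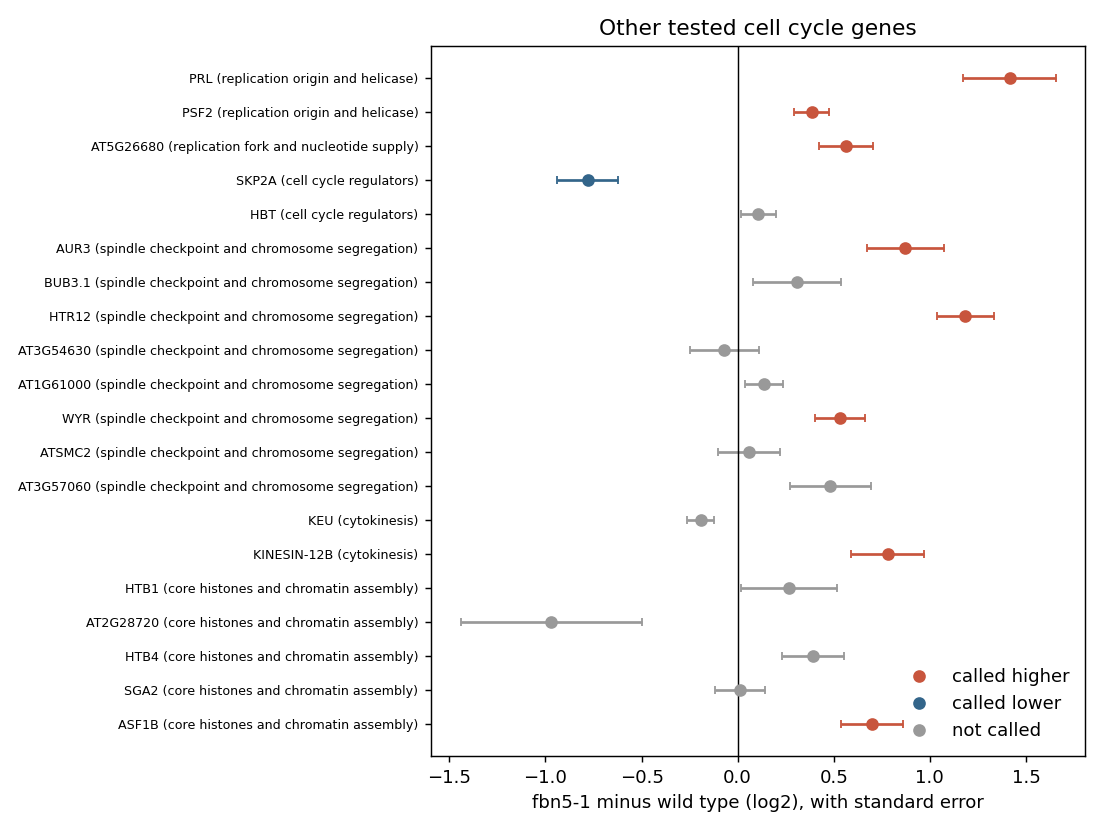
Difference between labels, fbn5-1 minus wild type in log2 units with the SE of the limma fit, for the 20 tested genes of the 7 lists, in red where called higher, in blue where called lower and in grey where not called. The 8 called higher run from PSF2 (0.39) to PRL (1.41), and SKP2A (-0.78) is the one called lower.

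Markers of cells that divide in a leaf or shoot were read beside the members. Of the stomatal lineage list, 3 of 10 had a probe set of their own, and their summed linear signal was 49.2 to 69.9 on wild type and 54.0 to 92.3 on fbn5-1 arrays. SPCH, the factor that starts this lineage, had 2.21, 2.63, 2.79 and 2.48 on wild type arrays 1 to 4 and 5.08, 2.86, 3.70 and 5.32 on fbn5-1 arrays 1 to 4. Its wild-type mean of 2.53 lay below the filter value of 2.79 and its fbn5-1 mean of 4.24 above it, so like HTB2 it passed only through the arrays where it was high. Its difference of 1.71 (SE 0.49), or 0.76 with 16 added, is therefore given without a test. MUTE had a mean of 1.56 and 2.01, under the filter value, and FMA, a late factor of the lineage, 5.68 and 5.49 (limma adjusted p = 0.411). The summed signal on wild type arrays was thus mostly FMA. Its higher top on fbn5-1 arrays went with SPCH on arrays 1 and 4.

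The fbn5-1 arrays 1 and 4, high for SPCH, were those high for BUBR1. Deviations of both were larger on fbn5-1 arrays (SD 1.16 for SPCH and 0.66 for BUBR1) than on wild type arrays (0.25 and 0.16). A correlation between them thus rests mostly on the fbn5-1 arrays. Deviations of SPCH correlated with those of BUBR1 at 0.92 over the 8 arrays (rho = 0.90). The value was 0.91 without wild type array 4 and fbn5-1 array 2. For the other 6 genes the correlations were 0.44 to 0.81 on all 8 arrays and 0.17 to 0.50 without those 2 arrays, with AUR2 going from 0.81 to 0.50 and AUR1 from 0.69 to 0.31. This comparison was chosen after the values were seen, and the 2 arrays left out were picked on the members' own deviations. The part of stomatal lineage cells in the members' signal was not tested.

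**Figure D5:**
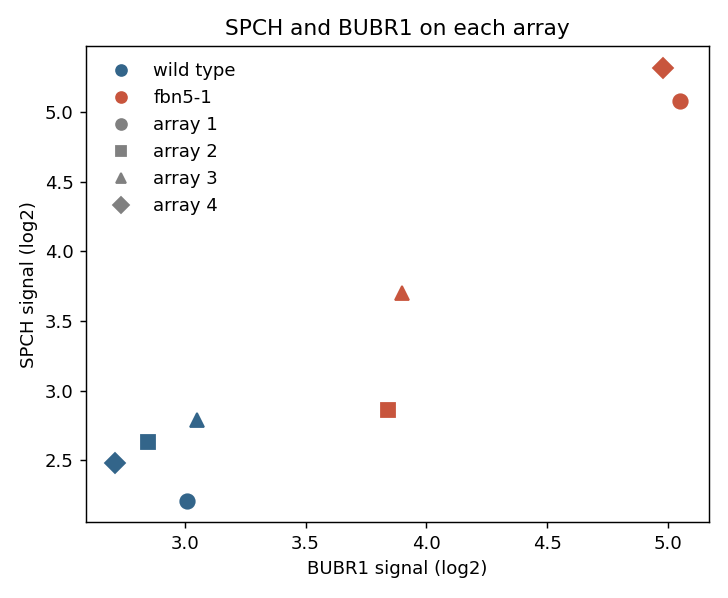
Deposited log2 signal of BUBR1 (horizontal) and SPCH (vertical) on each array, wild type in blue and fbn5-1 in red, with a marker shape for each array number. The fbn5-1 arrays 1 and 4 lie at the top right, near 5 on both axes, and fbn5-1 array 2 has SPCH at 2.86, close to the wild type arrays.

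Of 19 shoot meristem and leaf primordium markers, CLV3 and UFO had a probe set of their own. CLV3, a peptide of the meristem centre, had means of 1.26 and 1.21 on wild type and fbn5-1 arrays, and UFO, an F-box protein of meristems, 2.12 and 2.12, all under the filter value. Their summed linear signal was 6.42 to 7.76 and 6.11 to 7.53. Of 7 root markers PYK10, a beta-glucosidase known from roots and seedlings, was measured, at 9.23, 9.70, 9.34 and 6.84 on wild type arrays 1 to 4 and 9.72, 9.26, 9.59 and 9.36 on fbn5-1 arrays 1 to 4 (adjusted p = 0.404). As for 6 of the 7 genes (all but FBL17), its lowest wild type value was on array 4, and its part in their levels was not tested.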

How the data were processed

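Leaf RNA was read on 8 arrays. The authors deposited log2 values with 2 decimals, made with MAS5 per the submitters' processing notes; base 2 was inferred from how high and low the values reach, and background correction and scaling are not given in the sources used here. The matrix, with 28583 probe sets, was used as deposited; a table of 38408 held identical values for shared probe sets and entered 1 alternative. Of the 28583, 16746 name 1 gene, 758 several and 11079 none. Names were updated through RefSeq (TAIR10.1), which held 16601 of the 16746; its coordinates were not used, since the array's build is not named.

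Probe sets with a mean above the 40th percentile (2.79) were tested with limma 3.58.1 in R 4.3.3 (lmFit, eBayes with intensity trend), two-sided, with Benjamini-Hochberg adjustment over 17147. The fit was tested on simulated data. The members and lists were chosen with earlier results of these data known. Genes were named by rule: the members, FBN5, up to 4 called per list, listed HTB, AUR and BUB genes, the 5 most alike by each measure, and called markers. The other uncalled genes were named after their values were seen. The number of arrays limits precision. No sequence is printed.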

Additional observations from a re-analysis of the deposited data

Results flagged for a closer look

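In 12 of 88 groups of 4 arrays, 1 array lay far outside the others of its label (its gap to the nearest, as a share of the group's range, was over Dixon's critical value, which chance exceeds in about 1 of 20 groups). In 8 of the 12 the array was wild type array 4. It was the lowest of its label for TOPII (2.85, nearest 3.29), ICU2 (2.33, nearest 3.27), BUB3.1 (4.13), HTB4 (4.45), SIM (2.31), AT1G08180 (1.64) and PYK10 (6.84), and the highest for FBN5 (5.15). On fbn5-1 array 2, AUR1 was lowest at 3.94 (nearest 4.76). WYR was highest on wild type array 3 (3.1) and lowest on fbn5-1 array 3 (3.13), and HTB11 was lowest on fbn5-1 array 1 (1.38).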

How the results depend on the processing

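Every difference of the 7 genes stayed positive in each alternative run, and each alternative other than an added constant moved no single gene's difference by more than its spread between replicates. The median of 1.2 was 0.551 with 16 and 0.223 with 64 added (the latter chosen after seeing the data), and 1.016 to 1.428 with 1 array left out. With the 60th percentile filter, FBL17 alone of the 7 was tested (0.658). Of 7 other cell cycle genes tested with this filter, 2 were called, 1 higher and 1 lower. As reported, 8 of 20 were called higher, so the share called higher fell along with the number tested. Over all probe sets tested with this filter, 2639 of 11432 were called in either direction. With 1 array left out, the count of called probe sets was 1736 to 3854 (2876 as reported), and that of called cell cycle genes 5 to 10 (9 as reported), 4 to 8 of them higher and 1 to 2 lower. Array weights gave 4450 called probe sets and 2 cell cycle genes lower. Leaving out wild type array 4 and fbn5-1 array 2 together also gave 2 lower. The cause was not tested in these runs. Without wild type array 4 alone, the 2 lower were SKP2A and AT2G28720 (-1.51, limma adjusted p = 0.000988). The replicate number as a block gave 1731 called probe sets and 5 cell cycle genes, 4 higher. Same-numbered arrays had correlated deviations of 0.157, -0.187, -0.0367 and 0.00185, so the numbers are not taken as pairs. Other probe sets of a member could not be tried, as each has 1.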
